A study of Mus musculus with 6 samples.

Results

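The genes described here are 5 of the 27093 Ensembl genes in the deposited expression table and were chosen by name. They are the plasminogen activators Plau and Plat, the activator receptor Plaur, and the serpins Serpine2 and Serpinf1. RNA came from mouse skeletal muscle satellite cells, the stem cells of muscle, on day 4 of culture in medium with serum and basic FGF. There were 3 libraries from Islr knockout cells and 3 from control cells, all 6 under the same growth culture. Islr codes for a secreted leucine-rich repeat protein. The series design also speaks of cells sorted by flow cytometry on whether they carried Islr. The labels give neither the deleted part of Islr nor any driver of the deletion, and neither strain nor age. Whether the 3 libraries of a group stem from different mice or cultures is not said either, and the p-values below refer to the variation among the libraries as such, which may be technical.

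Plasmin, formed from plasminogen, degrades fibrin and other matrix proteins and activates growth factors and other proteases. The urokinase-type activator Plau works at the cell surface, bound to its receptor Plaur, while the tissue-type activator Plat works mainly on fibrin. Most serpins are suicide inhibitors of proteases, and Serpine2 (protease nexin 1) blocks thrombin and both activators. Serpinf1 (pigment epithelium-derived factor) has the serpin fold but is not known to inhibit proteases, so it is a serpin of this group by family and not by activity. In regenerating mouse muscle, Plau and plasmin are known for fibrin removal and for their effects on myoblasts and inflammatory cells.

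Library totals ran from 16456917 to 20531276 reads on genes. Values below are scaled reads, that is, read counts divided by 1 size factor per library. Islr itself did not separate the groups: the libraries labelled knockout 1, 2 and 3 had 256.7, 7.4 and 10.9 scaled Islr reads, against 181.1, 12.8 and 1579 in those labelled control 1, 2 and 3. The library labelled knockout 1 goes against its label, and so does that labelled control 2, which lies at the level of knockout 2 and 3, as far as reads over the whole gene can check a deletion of unknown extent. Knockout and control below stand for the labels, and each fold change from the fits over all 6 libraries is also given without knockout 1 and without control 2. The column taken for control 1 has 2 digits of its name exchanged against the label. Differentiation also did not follow the groups. Myog, a marker of differentiating myocytes, was 37228, 1998 and 5737 in knockout 1, 2 and 3, against 43370, 417.2 and 43261 in control 1, 2 and 3. The satellite cell factor Pax7 had reads in every library, from 1233 to 2729. The RNA is from bulk culture, so fewer cells of a type and less RNA per cell cannot be told apart.

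Serpinf1, Plau, Serpine2 and Plaur were abundant and Plat was low. In FPKM, which divides by transcript length as the authors set it, Serpinf1 averaged 327 ± 92.8 in knockout and 411 ± 136 in control libraries (SD, n = 3 each, as for all means below). Plau averaged 161 ± 38.9 FPKM in knockout and 96.1 ± 64.7 FPKM in control libraries. Serpine2 averaged 80.2 ± 59.1 FPKM in knockout and 38.3 ± 31.9 FPKM in control libraries, and Plaur 62.5 ± 14.1 FPKM in knockout and 47.3 ± 23.1 FPKM in control libraries. Plat averaged 2.31 ± 0.644 FPKM in knockout and 1.71 ± 1.6 FPKM in control libraries. Serpinf1 ranked first and Plat last in all 6 libraries. The order of the other three changed: Plau was second in 4 libraries, Plaur in control 2 and Serpine2 in control 3. Serpine2 and Plaur, neighbours in this order, differed by less than the SD of Serpine2 in both groups. Plau and Serpine2 differed by less than the SD of Plau in control libraries. Serpinf1 lay between the 98.8th and 99.5th percentile of tested genes in every library, and Plat between the 41.5th and 55.8th.

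**Figure D1:**
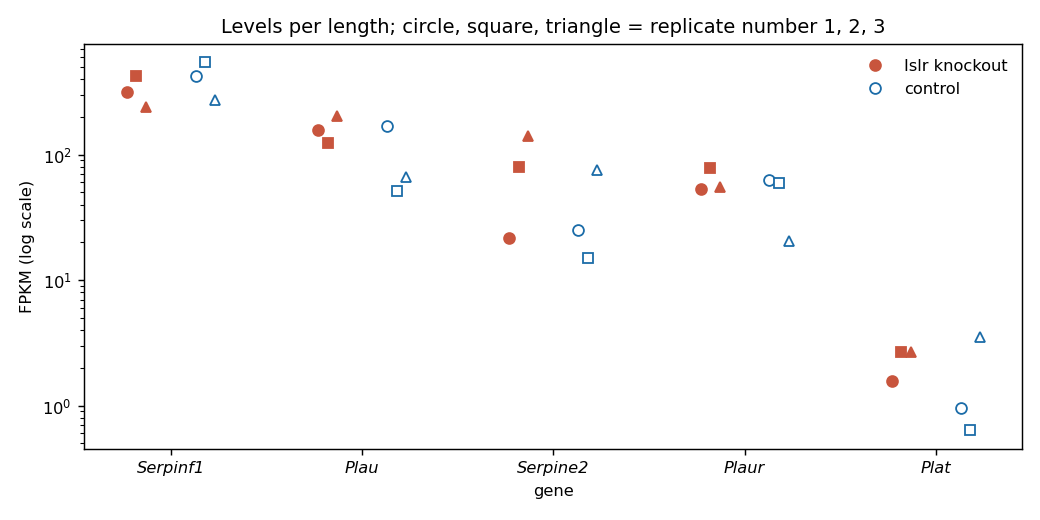
FPKM (log axis) of the 5 genes in each library, with filled symbols for Islr knockout and open symbols for control, and circle, square and triangle for replicate numbers 1, 2 and 3. Serpinf1 lies highest in every library and Plat lowest, at 0.634 to 3.55 FPKM.

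None of the 5 genes passed the test between knockout and control libraries. Plau, Plaur, Plat and Serpine2 had higher means in knockout libraries and Serpinf1 had a lower mean. The groups overlapped in all 5, where 4.76% of the 20344 tested genes did not overlap. The share of tested genes past the adjusted threshold of 0.05 was 0% (limma, with 0 genes called, also 0 by edgeR and by DESeq2), and 1.36% had an unadjusted p under 0.05, among them 0 of the 5. Replicate numbers occur in both groups, and same-numbered libraries deviated together, so the fit was repeated with the number as a block. With the block 4.59% of genes had an unadjusted p under 0.05, among them 1 of the 5 (Plau).

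Plau, the urokinase gene (ENSMUSG00000021822, chromosome 14, 20836660 to 20843385 on GRCm38, plus strand), came closest. It stood at 6925, 5344 and 7970 scaled reads in knockout 1, 2 and 3, against 7459, 2340 and 2739 in control 1, 2 and 3. Control 1 was as high as the knockout libraries, while control 2 and control 3 lay below all of them. The means were 6746 ± 1322 in knockout and 4179 ± 2847 in control libraries. The log2 fold change was 0.87 ± 0.43 (SE), with a 95% interval from -0.11 to 1.86 (limma, unadjusted p = 0.0745, adjusted p = 1.0). With the replicate block the SE was 0.30 and the interval ran from 0.18 to 1.57 (limma, unadjusted p = 0.0198, adjusted p = 0.92). Without control 1, the highest control library, the log2 fold change was 1.39 (limma, unadjusted p = 0.00278). In that run 1.23% of all tested genes had an unadjusted p under 0.05 and 0 were called. With any other single library left out, the unadjusted p of Plau lay between 0.0788 and 0.237 (limma). The log2 fold change was 0.56 without control 2 and 0.85 without knockout 1. Within replicate numbers the knockout library held 0.928 times the Plau of its control in number 1, 2.28 times in number 2 and 2.91 times in number 3.

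Plaur, the receptor that holds urokinase at the cell surface (ENSMUSG00000046223, chromosome 7, 24462484 to 24475968, plus strand), stood at 2009, 2901 and 1873 scaled reads in knockout 1, 2 and 3, against 2341, 2314 and 725.3 in control 1, 2 and 3. The other 5 libraries lay between 1873 and 2901, and control 3 lay far below them. The means were 2261 ± 558 in knockout and 1794 ± 925 in control libraries, a log2 fold change of 0.49 ± 0.46 (SE) with an interval from -0.55 to 1.53 (limma, unadjusted p = 0.312, adjusted p = 1.0). This value rested on control 3: without it the log2 fold change was -0.07, and it was 0.56 without knockout 1 and 0.77 without control 2. The ratio of knockout to control was 0.858 in replicate number 1, 1.25 in number 2 and 2.58 in number 3.

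Plat, the tissue-type activator (ENSMUSG00000031538, chromosome 8, 22757727 to 22782844, plus strand), stood at 118.7, 199.3 and 181.6 scaled reads in knockout 1, 2 and 3, against 72.2, 50.1 and 251.4 in control 1, 2 and 3. The 3 knockout libraries lay between the control libraries, of which control 3 was the highest of all. Control 2 rests on 43 reads, with an exact Poisson interval from 36.3 to 67.5 scaled reads, and control 3 on 295 reads, from 223.6 to 281.8 (95%, counting error only). The means were 167 ± 42.4 in knockout and 125 ± 110 in control libraries, a log2 fold change of 0.74 ± 0.59 (SE) with an interval from -0.61 to 2.08 (limma, unadjusted p = 0.246, adjusted p = 1.0). Without control 3 it was 1.42 (limma, unadjusted p = 0.0127), without control 2 it was 0.27, and without knockout 1 it was 0.96. In the run without control 3, 1.55% of all tested genes had an unadjusted p under 0.05 and 0 were called. With any other single library left out, the unadjusted p of Plat lay between 0.192 and 0.652 (limma). Within replicate numbers Plat went the other way from Plau in numbers 1 and 3: the ratio of knockout to control was 1.64, 3.98 and 0.722 in numbers 1, 2 and 3.

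Serpine2, protease nexin 1 (ENSMUSG00000026249, chromosome 1, 79794197 to 79861180, minus strand), had the widest range of the 5 over the 6 libraries, while within control libraries Plat varied more. It stood at 1382, 4917 and 7990 scaled reads in knockout 1, 2 and 3, against 1599, 1005 and 4433 in control 1, 2 and 3. Knockout 3 was 7.95 times control 2, and both libraries of number 3 were high. The means were 4763 ± 3307 in knockout and 2345 ± 1832 in control libraries, a log2 fold change of 0.98 ± 0.78 (SE) with an interval from -0.88 to 2.83 (limma, unadjusted p = 0.252, adjusted p = 1.0). The interval includes both no difference and a difference of over 2 log2 units. Without knockout 1, the lowest knockout library, the log2 fold change was 1.70 (limma, unadjusted p = 0.0267). In that run 4.11% of all tested genes had an unadjusted p under 0.05 and 0 were called. With any other single library left out, the unadjusted p of Serpine2 lay between 0.0936 and 0.597 (limma). The log2 fold change was 0.44 without knockout 3 and 0.51 without control 2. The ratio of knockout to control was 0.864, 4.9 and 1.8 in numbers 1, 2 and 3.

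Some markers of other cells ran with Serpine2 across the libraries and others did not. Pdgfra, the receptor that marks fibro-adipogenic cells, stood at 83.3, 296.1 and 417.6 scaled reads in knockout 1, 2 and 3, against 91.1, 85.1 and 165.3 in control 1, 2 and 3. The 7 fibroblast markers, of which Col3a1 made up most, summed to 4931, 6713 and 10768 in knockout 1, 2 and 3, against 5433, 4357 and 8878 in control 1, 2 and 3. Like Serpine2, Pdgfra and this sum were highest in knockout 3 and, among control libraries, in control 3. So were Cd34, Dcn and Ly6a of the same list, at 1909, 1389 and 663.7 in knockout 3 and 357.1, 478.1 and 453.4 in control 3. Col3a1 was highest of the knockout libraries in knockout 3, at 6379, but highest of all 6 libraries in control 3, at 7422. Lum of the same list was lowest in control 3, at 0.9, and highest in knockout 2, at 23.1, and Dpt was at 0 in knockout 1 and 2. Both had few reads, at most 25 in a library for Lum and 4 for Dpt, so the order of Dpt says little. Lum had 25 reads in knockout 2 and 1 in control 3. The 4 Schwann cell markers summed to 136.9, 515.7 and 441.9 in knockout 1, 2 and 3, against 154.4, 170.1 and 146.6 in control 1, 2 and 3. The 5 endothelial markers summed to 294.3, 1111 and 1037 in knockout 1, 2 and 3, against 296.6, 498.8 and 330.7 in control 1, 2 and 3. Both sums were high in knockout 2 and 3, as Serpine2 was, but neither was highest of the control libraries in control 3, and no marker of either list was at 0 in any library. The 5 macrophage markers were low, at 50.2, 100.6 and 287.9 in knockout 1, 2 and 3, against 83.3, 40.8 and 83.5 in control 1, 2 and 3, and Ptprc was at 0 in knockout 2 and in all 3 control libraries. The 4 smooth muscle and pericyte markers summed to 18268, 17087 and 13243 in knockout 1, 2 and 3, against 27480, 11286 and 35381 in control 1, 2 and 3. The 3 tenocyte markers summed to 2321, 1578 and 1553 in knockout 1, 2 and 3, against 2746, 1463 and 2986 in control 1, 2 and 3. Among knockout libraries these last sums were lowest in knockout 3, where Serpine2 was highest, the tenocyte sum only just. Acta2 made up most of the smooth muscle and pericyte sum, and Scx most of the tenocyte sum. Cspg4 was also lowest of the knockout libraries in knockout 3, at 1143. Mkx of the tenocyte list was instead highest in knockout 3, at 237.7, and, among control libraries, in control 3, at 152.6. Rgs5 of the pericyte list was lowest in knockout 1, at 5.7, and highest in control 3, at 422.7. The part of such cells in the level of Serpine2 was not tested.

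Serpinf1, pigment epithelium-derived factor (ENSMUSG00000000753, chromosome 11, 75409769 to 75422701, minus strand), was the 1 member lower in the knockout library of every replicate number. It stood at 10918, 14261 and 7400 scaled reads in knockout 1, 2 and 3, against 14427, 19439 and 8671 in control 1, 2 and 3. Number 2 was highest and number 3 lowest in both groups, and the groups overlapped. The ratio of knockout to control was 0.757, 0.734 and 0.853 in numbers 1, 2 and 3. Of all tested genes 12.1% were also lower in all 3 pairs, so this alone does not set Serpinf1 apart. The means were 10860 ± 3431 in knockout and 14179 ± 5388 in control libraries, a log2 fold change of -0.36 ± 0.37 (SE) with an interval from -1.21 to 0.49 (limma, unadjusted p = 0.362, adjusted p = 1.0). With the replicate block the SE was 0.18 (limma, unadjusted p = 0.0788, adjusted p = 0.92). It was -0.39 without knockout 1, -0.09 without control 2 and -0.11 without knockout 3.

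**Figure D2:**
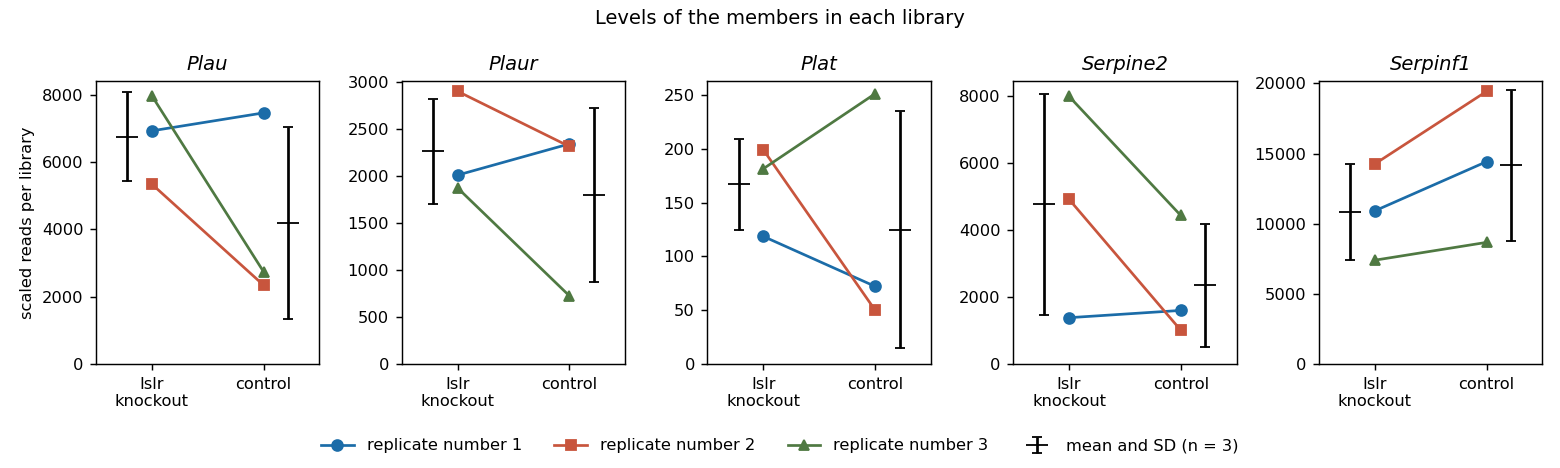
Scaled reads of the 5 genes in each library, Islr knockout on the left and control on the right of each panel, with lines joining libraries of the same replicate number and black bars for the mean and SD of 3 libraries. Lines cross or run opposite ways in every panel but that of Serpinf1, where all 3 are lower in the knockout library.

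The 5 genes did not share a pattern over the libraries. In replicate number 1, Plau, Plaur and Serpine2 differed by at most 0.22 log2 units between knockout and control (-0.11, -0.22 and -0.21). In number 2 the differences were 1.19 for Plau, 0.33 for Plaur, 1.97 for Plat and 2.29 for Serpine2. In number 3 they were 1.54 for Plau, 1.37 for Plaur, -0.47 for Plat and 0.85 for Serpine2. The RNA ratio of the activator Plau to the serpin Serpine2 changed with them, with other inhibitors left aside. Plau over Serpine2 in FPKM was 7.26, 1.57 and 1.45 in knockout 1, 2 and 3, against 6.76, 3.37 and 0.895 in control 1, 2 and 3. The ratio was thus highest in number 1 in both groups, lower in the knockout library of number 2 and higher in that of number 3. Plau over its receptor Plaur was 2.96, 1.58 and 3.65 in knockout 1, 2 and 3, against 2.73, 0.867 and 3.24 in control 1, 2 and 3. The knockout library had the higher Plau to Plaur ratio in all 3 numbers, though the groups overlapped. These ratios are descriptions, with no test.

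**Figure D3:**
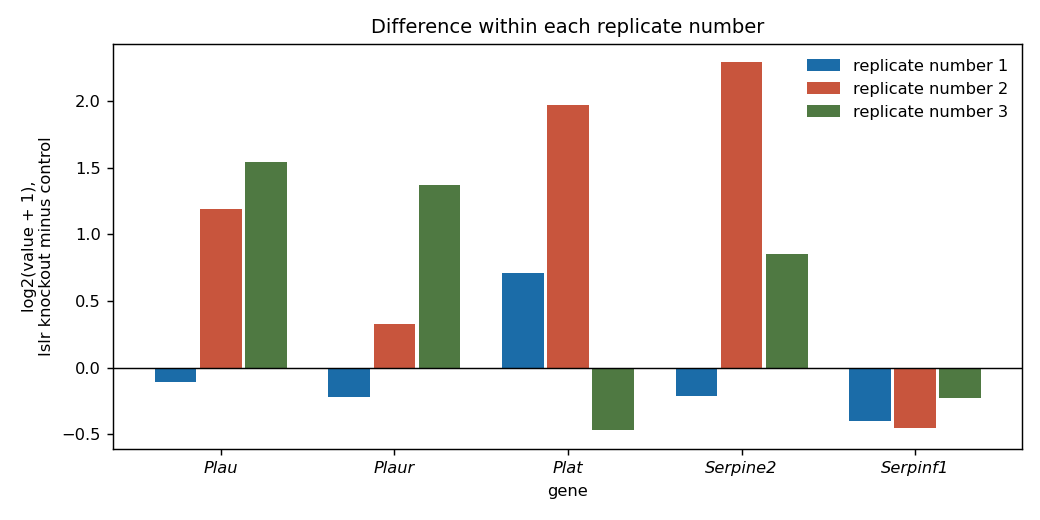
Difference of log2(scaled reads + 1), Islr knockout minus control, within replicate numbers 1, 2 and 3 for each gene. Serpinf1 is below 0 in all 3 numbers, while Plau, Plaur and Serpine2 are slightly below 0 in number 1 and above 0 in numbers 2 and 3.

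The authors' deposited table gives its own comparison for these genes. In the authors' deposited table the log2 fold change was 0.69 for Plau, 0.33 for Plaur, 0.42 for Plat, 1.02 for Serpine2 and -0.38 for Serpinf1, with an adjusted p of 1.0 for each. Its header does not name the direction, and the signs equal those of knockout over control in the fits above.

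Promoters are shown for the 3 members held in the RefSeq promoter table (GRCm38.p6), as they come from genes on both sides of the comparison. Each window runs from 250 bases before to 50 bases after the start, in the direction of the gene. Capitals mark matches on either strand to the AP-1 motif TGANTCA, the GC box GGGCGG, the TATA box TATAAA, the CCAAT box CCAAT or the CRE TGACGTCA, and neighbouring GC box matches can overlap.
Plaur (chr7:24462233-24462532, plus strand): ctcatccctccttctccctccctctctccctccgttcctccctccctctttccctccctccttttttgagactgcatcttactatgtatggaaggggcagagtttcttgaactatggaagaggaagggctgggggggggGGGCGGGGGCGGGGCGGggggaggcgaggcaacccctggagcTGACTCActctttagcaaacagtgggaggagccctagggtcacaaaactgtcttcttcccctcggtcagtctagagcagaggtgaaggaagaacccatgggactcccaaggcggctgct
Serpine2 (chr1:79858616-79858915, minus strand): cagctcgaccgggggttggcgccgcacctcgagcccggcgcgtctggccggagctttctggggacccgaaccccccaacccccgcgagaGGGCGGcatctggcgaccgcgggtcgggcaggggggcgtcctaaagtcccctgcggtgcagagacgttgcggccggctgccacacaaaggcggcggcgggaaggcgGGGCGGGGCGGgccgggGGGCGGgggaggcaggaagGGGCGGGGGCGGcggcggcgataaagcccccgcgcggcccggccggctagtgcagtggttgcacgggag
Serpinf1 (chr11:75422574-75422873, minus strand): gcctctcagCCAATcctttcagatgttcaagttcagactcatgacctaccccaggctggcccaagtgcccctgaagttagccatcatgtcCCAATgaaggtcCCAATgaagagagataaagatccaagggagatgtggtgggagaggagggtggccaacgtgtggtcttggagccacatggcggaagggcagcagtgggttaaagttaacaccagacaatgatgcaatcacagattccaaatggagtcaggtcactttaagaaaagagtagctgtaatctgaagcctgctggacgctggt
The Plaur window holds 1 AP-1 match, TGACTCA at position -69 from the start, a motif found in 7.81% of all 32851 promoter windows. It also holds 3 GC box matches, between positions -111 and -100. The Serpine2 window is 77.7% G and C, against a median of 52.7% over all windows, and holds 6 GC box matches; 35.7% of all windows hold at least 1. That window lies inside the annotated span of Serpine2 in the table, which starts further upstream. The Serpinf1 window holds 3 CCAAT matches, as do 37.4% of windows at least once, and no GC box. None of the 3 windows holds the TATA letters or the CRE. A match is a description of the letters and not a site.

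Genes with the most similar profile were sought among 10412 genes with a mean of at least 100 scaled reads, by the root mean square difference of centred log2 values over the 6 libraries. For Plaur these were Dusp5 at 0.08, Spry4 at 0.15 and Cav2 at 0.15 log2 units. Dusp5, a phosphatase of ERK, stood at 1777, 2531 and 1616 scaled reads in knockout 1, 2 and 3, against 2371, 2161 and 664.8 in control 1, 2 and 3. Like Plaur it was low in control 3 alone. For Plau they were Mdm2 at 0.17, Klf4 at 0.19 and Timp1 at 0.21. For Serpinf1 they were Prmt7 at 0.03, Nob1 at 0.04 and Cenpu at 0.08. For Serpine2 they were Sqor at 0.21, Twist1 at 0.22 and Fez1 at 0.23, and for Plat Rab3d at 0.24, Mxd4 at 0.28 and BC029722 at 0.32. Among the members themselves the closest pair was Plaur and Serpinf1 at 0.52, and Plat and Serpine2 followed at 0.58. Plau lay 0.72 from its receptor Plaur and 1.14 from Serpine2. The 6 libraries fall into 3 pairs, so these profiles share the differences between replicate numbers.

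The rest of the plasminogen system was followed in a list of 35 genes, of which 25 were tested. Of these, 17 were on the higher side and 8 on the lower side in knockout libraries, with a median log2 fold change of 0.26, beside 0.03 over all tested genes, where 10789 were higher and 9555 lower. None passed the threshold (limma), and 3 of 25 had an unadjusted p under 0.05, beside 1.36% of all tested genes. With knockout 1 left out, 16 were higher and 9 lower, with a median of 0.34. Without control 2 the split was also 16 to 9, with a median of 0.15, and the median was 0.11 without knockout 3. The count at an unadjusted p under 0.05 was 2 without knockout 1, beside 4.11% of all tested genes. It was 1 without knockout 2, beside 1.29%, and 0 without knockout 3, beside 0.447%, and without control 3, beside 1.55%. It stayed at 3 without control 1, beside 1.23%, and without control 2, beside 2.56%. The split of all 25 counts genes of few reads on both sides, Plg and Cpb2 on the higher and Pzp and Serpinf2 on the lower. Cpb2 was at 0 in every control library. It reached the mean needed for testing through knockout libraries alone, so it could only fall on the higher side.

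Plasminogen RNA was at the detection limit. Plg had 3.4, 0 and 2.5 scaled reads in knockout 1, 2 and 3, against 2.2, 0 and 0 in control 1, 2 and 3, which is 3 reads or fewer in each library. Its surface receptors on the list differed in level. Anxa2 and Eno1 were the 2 highest, while Plgrkt averaged 15.4 FPKM in knockout and 18.2 FPKM in control libraries. Anxa2, an annexin that binds plasminogen and Plat, averaged 474 FPKM in knockout and 441 FPKM in control libraries, a log2 fold change of 0.02 ± 0.30 (SE). The interval ran from -0.66 to 0.70. The sign of this value changed without knockout 2 (-0.24) and without control 3 (-0.09), and it was 0.12 without knockout 1 and 0.06 without control 2. Eno1, an enolase that also binds plasminogen at the cell surface and can share reads with near-identical pseudogenes, averaged 46038 ± 12248 in knockout and 57790 ± 13646 in control libraries, with a log2 fold change of -0.34 ± 0.32 (SE) that was -0.39 without knockout 1 and -0.20 without control 2.

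Among the other inhibitors, Serpinb2, a serpin that inhibits urokinase, stood at 215.6, 1225 and 2731 scaled reads in knockout 1, 2 and 3, against 262.2, 254.0 and 243.8 in control 1, 2 and 3. The control libraries were nearly equal, knockout 1 was the lowest of the 6, and knockout 2 and 3 were far above. The macrophage, endothelial and Schwann marker sums given above were also highest in knockout 2 and 3. The part of such cells in the level of Serpinb2 was not tested. The log2 fold change of Serpinb2 was 1.82 ± 0.86 (SE) with all libraries (limma, unadjusted p = 0.0741, adjusted p = 1.0). It was 2.85 without knockout 1 (limma, unadjusted p = 7.78e-05), 1.82 without control 2 and 1.02 without knockout 3. Without knockout 1, 4.11% of all tested genes had an unadjusted p under 0.05 and 0 were called. With any other single library left out, the unadjusted p of Serpinb2 lay between 0.129 and 0.196 (limma). Serpini1 (neuroserpin, an inhibitor of Plat) was low, at 0.134, 0.369 and 0.789 FPKM in knockout 1, 2 and 3, against 0.131, 0.350 and 0.524 FPKM in control 1, 2 and 3, and the groups overlapped. The log2 fold change of its scaled reads was 0.18 ± 0.76 (SE), and its sign changed without knockout 3 (-0.36) and without control 1 (-0.35). It was 0.79 without knockout 1 and 0.35 without control 2.

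Partners and clearance receptors of the urokinase receptor held the 3 genes with the smallest p on the list. Lrp1, the endocytic receptor that clears complexes of activators with serpins, stood at 23616, 17141 and 21602 scaled reads in knockout 1, 2 and 3, against 14114, 13516 and 8236 in control 1, 2 and 3. Each knockout library was above each control library, as in 2.65% of tested genes. Its log2 fold change was 0.83 ± 0.30 (SE), with an interval from 0.14 to 1.51 (limma, unadjusted p = 0.0233, adjusted p = 1.0), 0.73 without knockout 1 (limma, unadjusted p = 0.0668) and 0.93 without control 2. Itgav, the integrin alpha chain that pairs with several beta chains to bind vitronectin and other matrix proteins, stood at 3898, 4274 and 3735 in knockout 1, 2 and 3, against 2364, 3329 and 1687 in control 1, 2 and 3, again with no overlap. Its log2 fold change was 0.74 ± 0.29 (SE; limma, unadjusted p = 0.0323, adjusted p = 1.0), 0.75 without knockout 1, 0.99 without control 2 and 0.50 without control 3. Itgb3, one of its partners, stood at 523.7, 1460 and 1276 in knockout 1, 2 and 3, against 589.9, 419.5 and 435.5 in control 1, 2 and 3. Its log2 fold change was 1.06 ± 0.40 (SE; limma, unadjusted p = 0.0264, adjusted p = 1.0). It was 1.52 without knockout 1, 0.97 without control 2, 0.78 without knockout 2 (limma, unadjusted p = 0.112) and 0.88 without knockout 3 (limma, unadjusted p = 0.0859). Itgb3 and the endothelial and Schwann marker sums given above were high in knockout 2 and 3, and the part of such cells in its level was not tested. Itgb1, the most abundant beta chain of the list, averaged 28681 ± 5008 in knockout and 23013 ± 8704 in control libraries, with a log2 fold change of 0.37 ± 0.32 (SE), 0.23 without knockout 1, 0.28 without control 2 and 0.16 without control 3. Itgb1 was higher in the knockout library of each number, as were 12.2% of all tested genes.

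Substrates and activating proteases showed wide spread. Met, the receptor of hepatocyte growth factor, averaged 3656 ± 1607 in knockout and 4511 ± 3171 in control libraries, with a log2 fold change of -0.17 ± 0.56 (SE) that was -0.46 without knockout 1, 0.24 without knockout 3 and 0.37 without control 2. Its ligand Hgf was low, at 5.7, 22.1 and 57.8 in knockout 1, 2 and 3, against 5.6, 3.5 and 64.8 in control 1, 2 and 3, so the 2 libraries of number 3 were the highest of both groups. Ctsb, a cathepsin that can activate pro-urokinase, averaged 13375 ± 9208 in knockout and 11145 ± 7112 in control libraries. St14, the membrane protease matriptase, ran from 5.7 to 198.4 in knockout and from 7.0 to 293.3 in control libraries, with a log2 fold change of 0.08 ± 1.71 (SE). St14 gave 1.54 without knockout 1 and -1.20 without control 2, so the direction is unsettled.

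**Figure D4:**
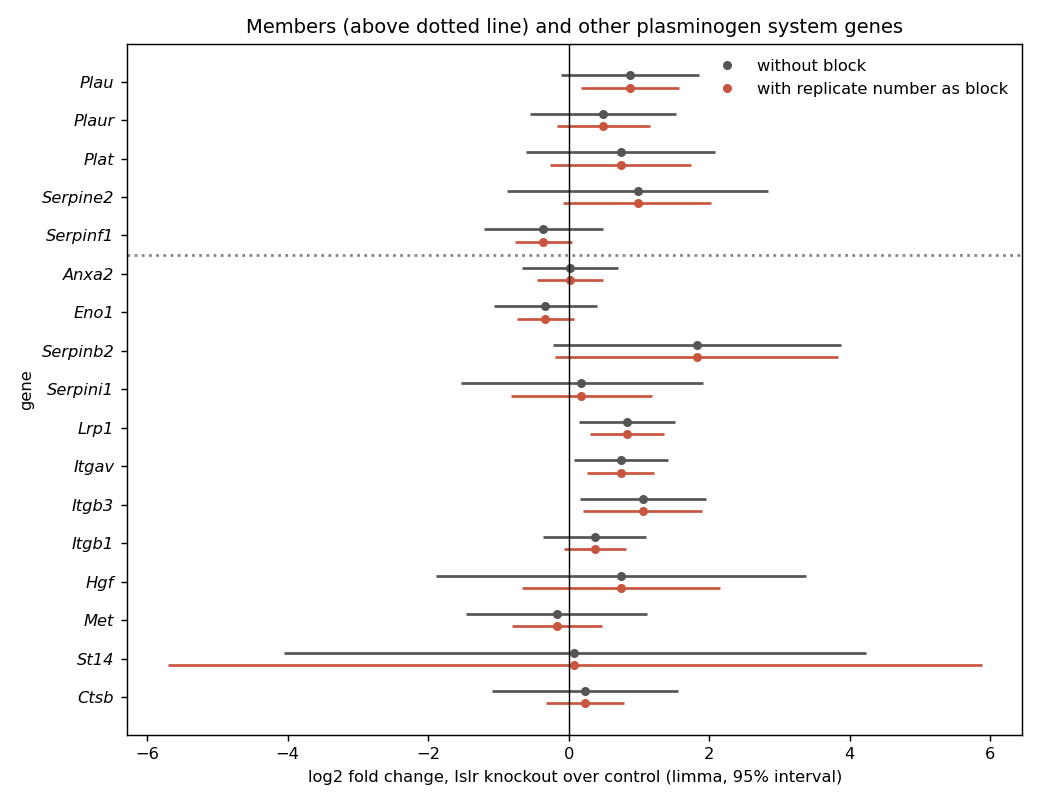
Log2 fold change, Islr knockout over control, with its 95% interval from limma, without (grey) and with (red) the replicate number as a block, for the 5 genes above the dotted line and 12 other genes of the plasminogen system below it. Without the block the intervals of Lrp1, Itgav and Itgb3 lie above 0, before adjustment, and those of all 5 members include 0.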

How the data were processed

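RNA sequencing values were used as the authors deposited them. The main deposited table holds a signal per gene and library, which is the gene count divided by 1 size factor per library, FPKM values, and results of a comparison by the authors (a log2 fold change with its p-value, raw and adjusted), per the file headers. The submitters' processing notes list HISAT2 2.0.5, edgeR 3.18.1, DESeq2 1.16.1, HTSeq and Trimmomatic. For strand handling, build and annotation the labels and headers used here are silent, and coordinates of 26923 of 27065 matched genes equalled GENCODE M21 (GRCm38). FPKM implied 1 fixed length per gene, such as 2342 bases for Plau.

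The 36 damaged lines were dropped, leaving 27366 features. Whole reads were recovered from the size of 1 read per library: 100.0% of values were whole within 0.01, and 480 of 480 genes in the authors' deposited raw count table had equal counts. A further 6 per-sample columns stayed out.

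The test was limma 3.58.1 (trend, robust) on log2(scaled reads + 1), two-sided, for the 20344 genes whose mean was 1 or more, with p adjusted over all of them (Benjamini-Hochberg). This scale understates changes of low genes. edgeR 4.0.16 and DESeq2 1.42.0 on recovered reads were alternatives. Exact permutation of 3 against 3 libraries cannot go below p = 0.1 and was not used. Over 14280 genes, a library's deviation from its group mean correlated with that of the same-numbered library at 0.689, 0.633 and 0.625. The numbers were therefore taken as pairing the libraries; this comes from the data, as the labels do not say what a number marks.

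The members and lists were chosen with earlier results of these data known. From each list the text names the 2 genes per role with the highest FPKM and the 3 with the smallest p, and for each member the 3 genes of most similar profile. Plg, Plgrkt, and Dusp5 with its values, were added after their values were seen. So were genes named only for having few reads. Of the 35 listed plasminogen system genes, 5 were not analysed here and 5 were below the filter. 1 further gene is not reported here. No annotated gene overlapped a member in GENCODE M21.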

Additional observations from a re-analysis of the deposited data

How the results depend on the processing

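The sign of each member's log2 fold change was kept under 3 scalings, 2 pseudocounts, 2 filters and the other tests, and no member passed the adjusted threshold under any alternative run. Leaving out 1 library reversed Plaur (-0.07 without control 3). The ranges over single libraries left out were 0.56 to 1.39 for Plau, -0.07 to 0.78 for Plaur, 0.27 to 1.42 for Plat, 0.44 to 1.70 for Serpine2, -0.68 to -0.09 for Serpinf1 and -4.18 to -0.77 for Islr. The count of genes called stayed at 0 but for DESeq2 with the replicate block, which called 7 genes, none a member. The count at an unadjusted p under 0.05 was 276. It was 120 with a mean of at least 10, 440 without the trend and robust options and 162 by edgeR. With the replicate block it was 933 by limma, 656 by edgeR and 714 by DESeq2. It ran from 91 to 837 with 1 library left out, and was 1289, 1942 and 292 with the block and both libraries of number 1, 2 or 3 left out. The cause of these shifts was not tested. The block changed no other adjusted call. Among the members and the listed genes it moved the unadjusted p of Plau from 0.0745 to 0.0198 and that of Serpinb9 from 0.22 to 0.0368 (limma). With the block and 1 number left out, Plau ran from 0.54 to 1.37, Plaur from 0.05 to 0.85, Plat from 0.12 to 1.34, Serpine2 from 0.32 to 1.57 and Serpinf1 from -0.42 to -0.32. Depth limits Plat most, with 43 reads in control 2.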

Other observations

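Serpins outside the plasminogen system were followed in a list of 14 genes, of which 12 were tested and none passed the threshold (limma). Of these 12, 10 were on the higher and 2 on the lower side in knockout libraries, with a median log2 fold change of 0.30, beside 10789 higher and 9555 lower of all tested genes. The split was 6 higher to 6 lower without control 2 and 7 to 5 without knockout 3. The median was 0.80 without knockout 1, 0.09 without knockout 3, -0.02 without control 2 and 1.16 without control 3. Serpinh1, the collagen chaperone of the endoplasmic reticulum, averaged 451 FPKM in knockout and 452 FPKM in control libraries, with a log2 fold change of -0.07 ± 0.28 (SE). It was 0.08 without knockout 1 and 0.06 without control 2, on the other side of 0. Serpinb6a, an intracellular serpin, averaged 7639 ± 1085 scaled reads in knockout and 6793 ± 2268 in control libraries. Serpinb9, a granzyme B inhibitor, stood at 67.3, 100.6 and 204.2 scaled reads in knockout 1, 2 and 3, against 38.9, 26.8 and 172.2 in control 1, 2 and 3. It was higher in the knockout library of each replicate number, as were 12.2% of all tested genes. Its log2 fold change was 0.96 ± 0.73 (SE; limma, unadjusted p = 0.22), 1.32 without knockout 1 and 0.44 without control 2. Serpina3n stood at 9.1, 34.1 and 30.1 in knockout 1, 2 and 3, against 0, 5.8 and 58.0 in control 1, 2 and 3. Serpinb5 was near the detection limit, at 1.1, 9.2 and 1.7 in knockout 1, 2 and 3 and at 0 in all 3 control libraries, where 3 reads would be 2.56 to 3.5 scaled reads. It reached the mean needed for testing through knockout libraries alone, so it could only fall among the 10 on the higher side. Serpinc1 and Serpind1 on the higher side and Serpina3g on the lower side also had few reads.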
